A study of Saccharomyces cerevisiae CEN.PK113-7D with 6 samples.

Results

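The transcripts of Saccharomyces cerevisiae growing in batch culture on glucose are described here from the 3 arrays labelled Batch, gene by gene and with no contrast to another culture. They make up 3 of the 6 arrays of the series; the other 3 are of chemostat culture and enter no value below. All are of strain CEN.PK113-7D, a prototrophic haploid laboratory yeast, with no gene altered and no treatment other than the mode of culture. Total RNA was labelled with biotin and each sample was hybridised to its own array. The labels tell of cells cooled at once and frozen, and of sampling at steady state; the growth phase and the glucose left in the batch medium at sampling are both missing from the sources used here. No label says whether the 3 samples came from separate cultures, so each standard deviation (SD) is that of these samples alone and may reflect technical variation only. The number of arrays limits the precision.

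In a batch culture with glucose in excess, this yeast ferments most of its sugar to ethanol even when oxygen is present. Glucose represses genes for respiration, for growth on other carbon sources and for making sugar from smaller molecules, while ribosome and glycolytic genes are transcribed strongly. As glucose is used up the repression is lifted, and genes of the general stress response, high-affinity hexose uptake and reserve carbohydrates are induced.

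Each value is the log2 signal of a probe set, as deposited, and means are over the 3 arrays with their SD. Probe sets differ in how brightly they respond to the same amount of RNA, so every rank and every difference between genes below is one of signals and not of transcript numbers. The signals are not divided by length. The arrays also carry probe sets for genes of the fission yeast S. pombe, whose RNA was not part of the samples. Further such probe sets may lie among the unannotated ones, and only the 1746 recognised by their symbols were used here. A gene was said to be at the floor where its signal was at or below the 95th percentile of those probe sets on every one of the 3 arrays; that percentile was 5.96, 5.96 and 5.98 on replicates 1, 2 and 3.

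The 5449 measured genes had mean log2 signals from 4.99 to 13.24, with a median of 7.96 and quartiles of 7.17 and 8.96. The whole range spanned 8.25 on the log2 scale. At the floor on all 3 arrays were 395 genes, 7.25% of those measured, while 49 were there on 2 arrays, 20 on 1 array and 4985 on none. Spearman correlations of the gene signals between pairs of arrays lay between 0.992 and 0.996 over the 5449 genes, which share their probe sets, so that much of the correlation is that of the probes. The median SD of a gene was 0.062. Replicate 1 stood somewhat apart from the other arrays in 64 of the 77 genes whose SD was above 0.3, so the counts of variable genes, and the gaps and medians that it moves most, are also given without it.

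**Figure D1:**
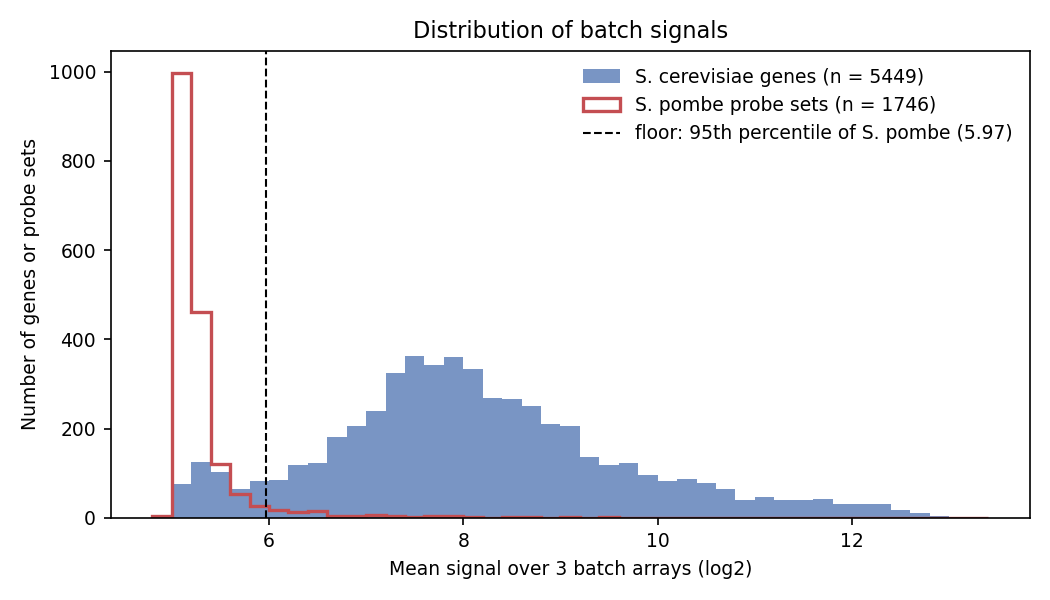
Number of genes by mean log2 signal over the 3 batch arrays, with the S. pombe probe sets of the same arrays for comparison and the floor marked as a line. The gene signals peak near their median of 7.96 and reach 13.24, whereas most S. pombe probe sets lie below the floor at 5.97, the mean over the 3 arrays.

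The strain's labelled type was checked against mating genes. The 22 a-specific and haploid mating genes had a median of 8.07, against 7.96 over all genes. Among the brightest 10% of all genes were 2 of them, or 9.09%. Some transcripts of mating type a cells were bright. MFA2, a gene for the a-factor pheromone, had log2 signals of 11.12, 11.24 and 11.17. STE2, the receptor for alpha-factor, had 10.90, 11.04 and 11.06. The other a-factor gene MFA1 had a mean of 9.94 ± 0.06 (SD, n = 3) and the a-factor exporter STE6 one of 9.40 ± 0.05. AGA2, a subunit of a-agglutinin, followed at 8.81, BAR1, the protease that degrades alpha-factor, at 8.94, and ASG7 at 6.34. Of 4 alpha-specific genes, the pheromone genes MF(ALPHA)1 and MF(ALPHA)2 were at the floor with means of 5.60 and 5.44. STE3 and SAG1 stood above the floor at 6.60 and 6.69, and above the a-specific ASG7. The haploid genes RME1, FUS3, GPA1 and STE18 had means of 8.73, 8.22, 8.39 and 7.94. The early meiotic kinase gene IME2 and SPO11, which cuts DNA in meiosis, were at the floor at 5.63 and 5.77. The other markers chosen for diploid or sporulating cells, IME1, NDT80, SPS1 and SPS4, are not given here. In RNA from bulk cultures, few cells with much of a transcript and many cells with little of it cannot be told apart.

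The brightest transcripts belonged to glycolysis, ethanol formation and the ribosome. TDH3, the main glyceraldehyde-3-phosphate dehydrogenase, ranked first of all genes with log2 signals of 13.29, 13.20 and 13.23. It was followed by TEF2, a gene for translation elongation factor 1 alpha, at 13.01, 12.96 and 12.91. CCW12, a mannoprotein bound covalently to the cell wall, came next with 12.99, 12.90 and 12.89. The ranges of TEF2 and CCW12 overlapped each other, and neither overlapped that of TDH3. The probe set of TEF2 carries the suffix for probes shared between near-identical transcripts; its twin TEF1 was not analysed here, so the signal of TEF2 may hold both.

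Of the 30 brightest genes, 18 encode cytosolic ribosomal proteins, 7 glycolytic enzymes and 2 enzymes of ethanol formation. The remaining 3 were TEF2, CCW12 and TMA19, a protein associated with ribosomes. The glycolytic 7 were TDH3, phosphoglycerate kinase PGK1 (12.85 ± 0.02, n = 3), phosphoglycerate mutase GPM1 (12.84 ± 0.02), enolase ENO2 (12.76 ± 0.04), pyruvate kinase CDC19 (12.68 ± 0.03), aldolase FBA1 (12.65 ± 0.02) and triose phosphate isomerase TPI1 (12.59 ± 0.06). They cover every step from fructose-1,6-bisphosphate to pyruvate. For ethanol formation, alcohol dehydrogenase ADH1 had 12.74, 12.74 and 12.67, and pyruvate decarboxylase PDC1 had 12.73, 12.69 and 12.61. From PGK1 down, neighbours in the order often differed by less than their SDs, as PGK1 and GPM1 did. Of these 30 genes, 27 were among the 30 brightest on every array taken alone.

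The brightest ribosomal protein genes were RPL2A at 12.77, RPS4B at 12.72 and RPL10 at 12.69. RPL2A and RPS4B have shared-probe suffixes, as have 10 of the 30 brightest genes in all. Where a gene's probe sets were averaged in place of taking the brightest, RPL2A moved from rank 6 to rank 59, and RPL18B from rank 14 to rank 192. With the shared-suffix probe sets left out, these genes ranked 148 and 478, and RPS8A moved from rank 18 to rank 44. TEF2, RPS4B, RPL7A, RPL41A, RPL4A, RPL1B and RPS6B then had no probe set left and were not ranked. The other 20 of the 30 brightest stayed among them. RPL41A, whose protein is among the shortest of the ribosome, was the exception in reproducibility, with 12.89, 12.77 and 11.95. Its rank of 21 became rank 34 without replicate 1, 32 without replicate 2 and 6 without replicate 3.

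Summed on the linear scale, the 30 brightest genes held 6.62% ± 0.16 (SD, n = 3) of all gene signal. The 100 brightest, of which 68 were ribosomal protein genes, held 17.8% ± 0.29. The top 10% of genes by signal, 545 of those measured, began at a log2 signal of 10.25 and held 49.9% ± 0.28. The brightest gene exceeded the median gene by 38.8-fold in signal. Bright probes can saturate and dim ones hold background, both of which narrow such a range; neither was tested.

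Genes were read in 38 lists of pathways, complexes and families, which held 1179 genes. Of these, 382 were in the top 10% and 88 at the floor. No member was at the floor in 20 lists, and none was in the top 10% in 11. The lists are given by role, from the machinery of protein synthesis through carbon metabolism to genes used in other states of the cell.

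**Figure D2:**
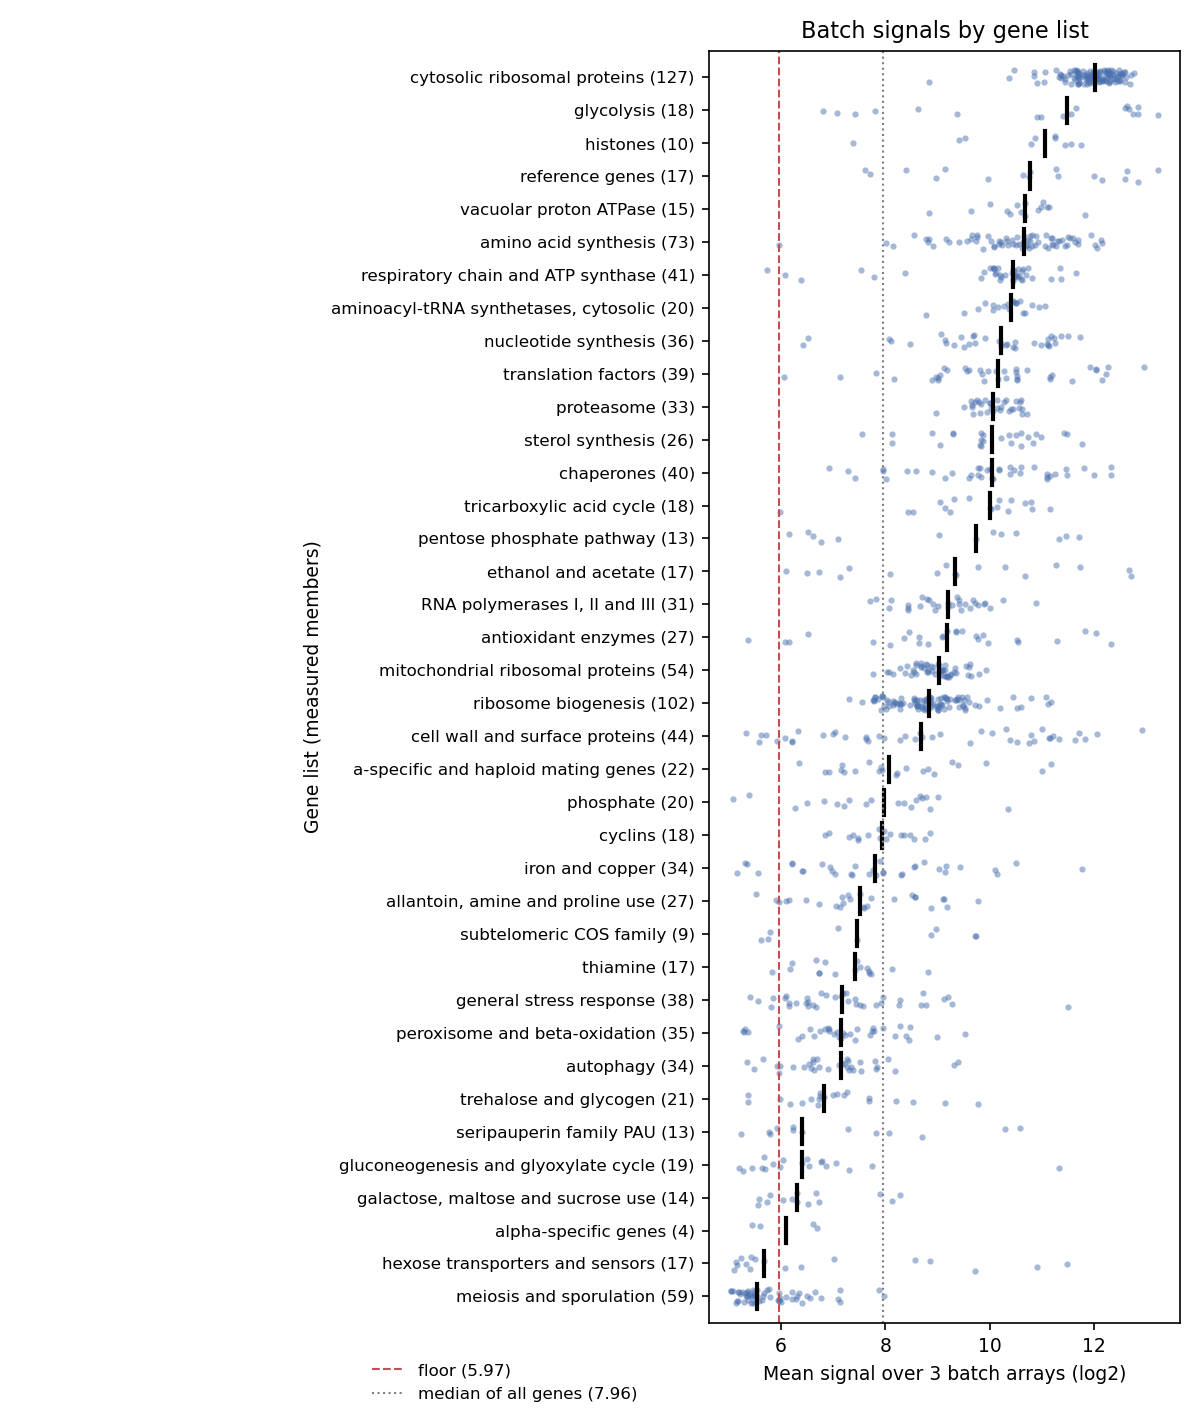
Mean log2 signal of each measured member of the 38 gene lists, ordered by list median, with the floor and the median of all genes as vertical lines and each list's median as a bar. Cytosolic ribosomal proteins form a tight cloud around 12.02, whereas meiosis and sporulation genes and hexose transporters have medians of 5.54 and 5.67, below the floor.

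Cytosolic ribosomal proteins had the brightest median of the lists, 12.02 over 127 measured genes against 7.96 over all genes, and 126 of them were in the top 10%. Together they held 18.1% ± 0.42 (SD, n = 3) of the summed linear signal. RPL15B was the exception, with 8.86, 8.85 and 8.82 and rank 1497. Its partner copy RPL15A had 11.78, 11.72 and 11.67. Translation factors had a median of 10.16 and 19 of 39 in the top 10%, led by TEF2, EFB1 at 12.28 and HYP2 at 12.23. Cytosolic aminoacyl-tRNA synthetases, which load amino acids onto tRNA, lay close together around 10.41 with an interquartile range of 0.52, from GUS1 at 11.06 to KRS1 at 8.78.

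Genes that build the ribosome were much dimmer than those of its proteins. The 102 ribosome biogenesis genes had a median of 8.84 and 7 members in the top 10%, among them the nucleolar proteins NOP1 at 11.17, GAR1 at 11.12 and NOP58 at 11.08. The subunits of RNA polymerases I, II and III had a median of 9.21, with RPB8, shared by all of these enzymes, at 10.88. Mitochondrial ribosomal proteins had a median of 9.02 and an interquartile range of 0.49, with 0 of 54 in the top 10%. MRPS12 was the brightest of them at 9.94 and RSM22 the dimmest at 7.76, so that their whole range lay below the dimmest cytosolic ribosomal protein but RPL15B.

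Glycolysis had a median of 11.48, and 12 of its 18 measured genes were in the top 10%. The upper steps had dimmer signals than the lower ones: hexokinase HXK2 had 11.41, phosphoglucose isomerase PGI1 11.66, and the phosphofructokinase subunits PFK1 and PFK2 had 10.90 and 10.98, with PFK2 higher than PFK1 on each of the 3 arrays. The dim members were minor isozymes, GPM3 at 7.42, PYK2 at 7.07 and GPM2 at 6.80. In ethanol and acetate metabolism, 6 of 17 were in the top 10%, with cytosolic acetaldehyde dehydrogenase ALD6 at 11.73 after ADH1 and PDC1. ADH2, the alcohol dehydrogenase that takes ethanol back up into metabolism, had 7.26, 7.16 and 6.96, and ALD3 was the dimmest at 6.10. The pentose phosphate pathway had a median of 9.75 and a wide interquartile range of 3.75, from GND1 at 11.71 to TKL2 at 6.15.

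Respiratory genes were bright in these batch arrays. The respiratory chain and ATP synthase had a median of 10.44 over 41 nuclear genes, and 23 of them were in the top 10%, with ATP1 of the ATP synthase at 11.66, cytochrome c CYC1 at 11.38 and QCR7 of complex III at 11.36. The chain's dimmest genes were forms that have a brighter counterpart, COX5B at 6.39, CYC7 at 6.08 and the external NADH dehydrogenase NDE2. NDE2 was the member at the floor, with 5.88, 5.64 and 5.65. The tricarboxylic acid cycle had a median of 10.02 with 6 of 18 in the top 10%. IDP1, the mitochondrial NADP isocitrate dehydrogenase, led at 11.16, followed by aconitase ACO1 at 10.81 and IDH2 at 10.79. At its lower end stood KGD1 at 8.44, SDH1 at 8.53 and CIT3 at 5.98. In the respiratory chain 39 of 41 genes were higher in replicate 1 than the mean of the other arrays, where 43.4% of all genes were; their median deviation was 0.13.

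Gluconeogenesis and the glyoxylate cycle were dim as a list, with a median of 6.40 and 6 of 19 at the floor. Fructose-1,6-bisphosphatase FBP1, which opposes phosphofructokinase, had 5.21, 5.19 and 5.17, among the dimmest genes measured. The succinate-fumarate carrier SFC1 had 5.26, and SIP4, an activator of gluconeogenic genes, 5.45. CIT2, the citrate synthase of the peroxisome, was the exception at 11.35, 11.35 and 11.30, within the top 10%; the next brightest of the list were YAT1 at 7.74 and acetyl-CoA synthetase ACS1 at 7.30. The 14 genes for use of galactose, maltose and sucrose had a median of 6.31 with 4 at the floor. Galactokinase GAL1 had 5.75, 5.71 and 5.75, against 8.22, 8.29 and 8.30 of the invertase gene SUC2 and 8.13 of the repressor GAL80.

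Hexose carriers split into a bright few and many at the floor. HXT3, a low-affinity carrier, had 11.48, 11.47 and 11.51. HXT4 had 11.17, 10.88 and 10.72, and HXT2 had 10.06, 9.67 and 9.44; neither overlapped HXT3 or the other. HXT1, a low-affinity carrier, followed with 8.73, 8.77 and 9.04, and HXT7, a high-affinity carrier whose probe set has the shared-probe suffix, with 9.18, 8.30 and 8.25. HXT1 and HXT7 overlapped, with HXT7 above HXT1 on replicate 1 only. HXT6, HXT12 and HXT16 were not analysed here. The glucose sensors RGT2 and SNF3, chosen for naming after their values were seen, had 7.01 and 6.38. In all, 8 of 17 members were at the floor, and HXT11, HXT15 and HXT13 were the dimmest at 5.15, 5.14 and 5.10.

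Biosynthetic pathways were bright. Amino acid synthesis had a median of 10.66, and 48 of 73 members were in the top 10%, led by NADP glutamate dehydrogenase GDH1 at 12.16, methionine synthase MET6 at 12.13 and serine hydroxymethyltransferase SHM2 at 12.06. GDH3 at 5.96 was the dimmest, after BAT2 at 8.01 and HIS6 at 8.14. Nucleotide synthesis had a median of 10.22 and 17 of 36 in the top 10%, from ADE17 at 11.74 to RNR3, a ribonucleotide reductase subunit, at 6.42. Sterol synthesis had a median of 10.06, with ERG25 at 11.77, ERG2 at 11.50 and ERG11 at 11.43 in front and the acyltransferases ARE2 and ARE1 last at 8.13 and 7.56. Replicate 3 was above the mean of the other arrays in 61 of 73 amino acid genes and 32 of 36 nucleotide genes, where 56.5% of all genes were, each with a median deviation of 0.08.

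Complexes and protein families differed in how far their members were spread. Proteasome genes lay around 10.07 with an interquartile range of 0.62, with PRE6 the brightest at 10.71 and their transcription factor RPN4 the dimmest at 8.97. The vacuolar proton ATPase had a median of 10.67 with 12 of 15 subunits in the top 10%, from VMA3 at 11.84 to STV1 at 8.83. Histone genes had a median of 11.06 and an interquartile range of 1.56; HTA2, HTB1 and HHF1 had 11.75, 11.55 and 11.44, the centromere histone CSE4 7.38. Chaperones had a median of 10.05 and an interquartile range of 1.86, with cyclophilin CPR1 at 12.33 and the ribosome-bound Hsp70 SSB1 at 12.32 in front, and heat-inducible SSA4, SSA3 and SSE2 last at 7.42, 7.29 and 6.92. Antioxidant enzymes ran from AHP1 at 12.33, superoxide dismutase SOD1 at 12.04 and TSA1 at 11.83 down to the peroxisomal catalase CTA1 at 5.36. Cyclins had a median of 7.94 and a small range, from PCL7 at 8.86 to CLB2 at 6.85.

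The lists of stress and reserve genes had medians below that of all genes. The general stress response had a median of 7.17 over 38 genes, 1 of them in the top 10%. At the floor were 3, or 7.89%, near the 7.25% of all genes. Without replicate 1 the median was 7.06. HOR7, a gene induced by high osmolarity, was the bright member with 11.73, 11.40 and 11.37, followed by the disaggregase HSP104 at 9.27. XBP1, SIP18 and SPG1 were at the floor with 5.41, 5.57 and 5.81. Trehalose and glycogen genes had a median of 6.82; UGP1, TPS1 and PGM1 led at 9.78, 9.14 and 8.54, while glycogen phosphorylase GPH1 had 5.97, and GAC1 and SGA1 had 5.37 each. Autophagy genes and peroxisome genes each had a median of 7.15. ATG27 was the brightest of the former at 9.40 and ATG16 the dimmest at 5.34; PEX11, which shapes and divides peroxisomes, led the latter at 9.53, and the beta-oxidation enzymes POX1 and POT1 had 5.31 and 5.27.

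In the lists of nutrient uptake and use, the top 10% held 2 of 34 genes for iron and copper and 1 of 20 for phosphate. It held 0 of 27 for allantoin, amine and proline use and 0 of 17 for thiamine. These counts are too small to tell the lists apart. Among the 34 iron and copper genes, with a median of 7.79, the metallothionein CUP1-1 had 11.89, 11.73 and 11.69 through a shared-suffix probe set. The high-affinity iron permease FTR1 had a mean of 10.51 and its partner oxidase FET3 one of 10.15, while FRE7, ARN2 and FRE5 were at 5.35, 5.30 and 5.15. The phosphate list had a median of 7.98, with the polyphosphate gene VTC1 at 10.35 and the secreted acid phosphatase PHO5 at 5.07. Allantoin, amine and proline use had a median of 7.52, with ammonium permease MEP2 at 9.77 and DAL80, a repressor of nitrogen genes, at 5.51. Thiamine genes had a median of 7.42, from SNZ1 at 8.83 to THI72 at 5.82.

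Cell wall and surface genes had a median of 8.69, or 8.61 without replicate 1, and an interquartile range of 3.78, with 16 of 44 in the top 10% and 5 at the floor. CCW12, CWP2 at 12.06 and SCW4 at 11.83 were at their upper end, and CRR1, FKS3 and the flocculin FLO1 at the lower, with 5.62, 5.57 and 5.32. In the seripauperin family PAU, 10 of 13 measured genes have shared-suffix probe sets. PAU23 and PAU17, without that suffix, were in the top 10% at 10.58 and 10.29, while PAU21 had 5.22. The subtelomeric COS family ran from COS4 at 9.74 and COS2 at 9.72 down to COS10 at 5.61.

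Meiosis and sporulation genes were the dimmest list. Their median was 5.54 over 59 genes, and 36 were at the floor, against 7.25% of all genes. The lowest were SAE3 at 5.03, 5.03 and 5.04, MEI5 at 5.05 and IME4 at 5.09. The brightest, CLB6 at 7.97 and CLB5 at 7.87, are cyclins that act in the mitotic S phase as well, and the next was REC107 at 7.13.

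Of the 395 genes at the floor, 307 were in none of the lists. The lowest of all was YMR247W-A with 4.99. The genes nearest to the threshold from below were SNO4 with a mean of 5.84, CDC13, which binds telomere ends, with 5.91, 5.95 and 5.93, YNL277W-A, YSW1 and ARR2. Those nearest from above were ARP10 with 5.95, 5.96 and 5.92, ATG14, SNT2, AUA1 and SLD7, each at the floor on 1 or 2 arrays. CDC13 is needed for growth, so a place at the floor does not mean that a gene was silent. The signals on either side of the threshold were closer than the SD of SNT2, 0.13, and their order there carries no weight.

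Isozymes were compared in 54 groups of 144 genes, as the difference of log2 signals within each array between the brightest member and the next. The same member was brightest on all 3 arrays in 53 groups. These include catalase, whose members were both at the floor on 2 arrays, where their order carries no weight. The difference was larger than 2 SDs in 52 groups, above 2 in 26, above 4 in 14 and under 1 in 14, with a median of 1.84. The brightest member was in the top 10% of all genes in 43 groups, and a member was at the floor in 5. Where the next member is at the floor the gap is a lower bound, taken against the floor of each array. The groups hold genes picked with their roles and earlier results known, so these counts describe the groups alone.

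**Figure D3:**
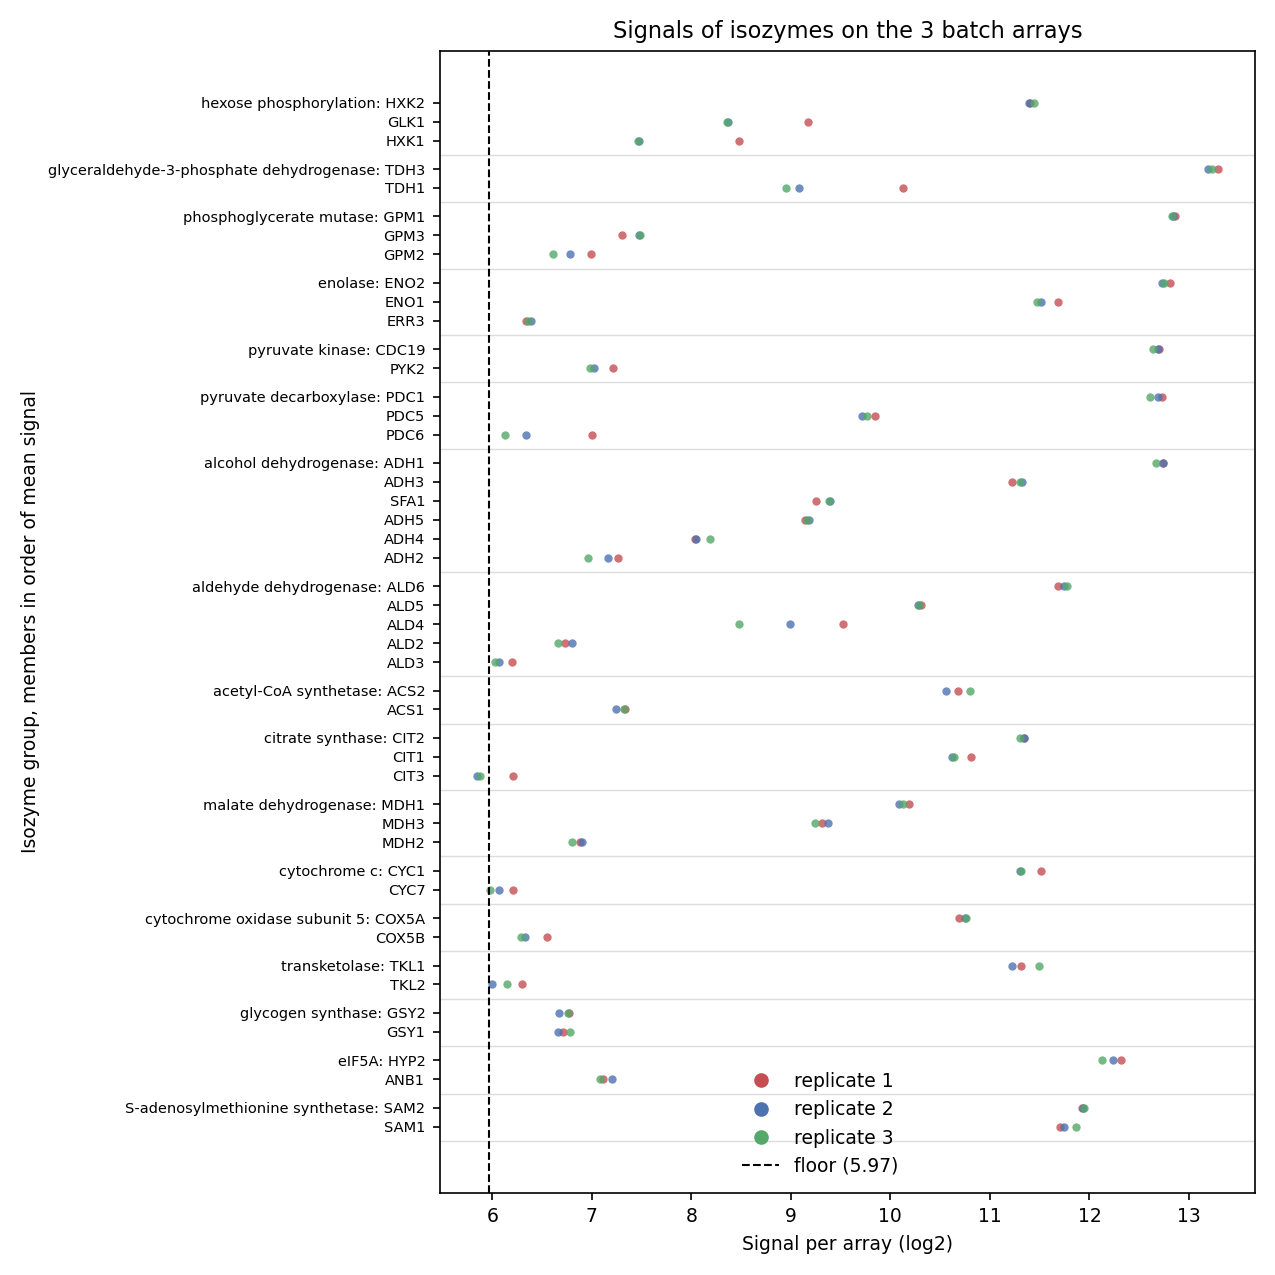
Log2 signals of the members of selected isozyme groups on each of the 3 batch arrays, coloured by replicate, with the floor as a vertical line. The groups follow a fixed order, and the members of each group are in order of mean signal. Among the groups shown, the gap between the brightest and the next member runs from 5.60 for CDC19 and PYK2 down to 0.02 for GSY2 and GSY1.

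The NADP glutamate dehydrogenases had the widest gap of the 54 groups. GDH1 had 12.06, 12.22 and 12.20 and GDH3 had 5.89, 6.07 and 5.92, with GDH3 at the floor on 2 of the 3 arrays. With the floor in place of GDH3 on those arrays, GDH1 was higher by at least 6.16, or at least 71.4-fold in signal. Translation elongation factor 3 had YEF3 above HEF3 by 6.0 ± 0.05 (SD, n = 3). The plasma membrane proton pump PMA1 exceeded PMA2 by 5.44 ± 0.09.

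In glycolysis, CDC19 exceeded its paralog PYK2 by 5.60 ± 0.10 and GPM1 exceeded GPM3 by 5.42 ± 0.12. TDH3 stood 3.85 ± 0.60 above TDH1; TDH2 was not analysed here. The large SD came from TDH1, with 10.12 on replicate 1 and 9.08 and 8.95 on replicates 2 and 3, and the gap without replicate 1 was 4.20. ENO2 and ENO1 were closer, 1.21 ± 0.08 apart, with ENO1 at 11.56. Among the sugar kinases, HXK2 had 11.40, 11.40 and 11.44, glucokinase GLK1 had 9.17, 8.37 and 8.36, and HXK1 had 8.48, 7.48 and 7.46. The order of these kinases was the same on each array, while the replicate 1 values of GLK1 and HXK1 lay 0.80 and 1.01 above the mean of the other arrays. HXK2 exceeded GLK1 by 2.78 ± 0.48, and by 3.05 without replicate 1.

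Around pyruvate and ethanol, PDC1 exceeded PDC5 by 2.90 ± 0.07, and PDC6 was last at 6.49. ADH1 exceeded the mitochondrial ADH3 by 1.43 ± 0.07, with ADH2 the dimmest of 6 alcohol dehydrogenases. ALD6 exceeded the mitochondrial ALD5 by 1.44 ± 0.06; ALD4, the other mitochondrial form, had 9.52, 8.99 and 8.48. ACS2 exceeded ACS1 by 3.38 ± 0.09, and pyruvate carboxylase PYC1 exceeded PYC2 by 0.83 ± 0.03. Glycerol synthesis had GPD1 above GPD2 by 3.60 ± 0.29 and the phosphatase GPP1 above GPP2 by 2.85 ± 0.42; without replicate 1 these gaps were 3.43 and 3.09.

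In the pairs with an aerobic and a hypoxic form, the aerobic form was the brighter. Cytochrome c CYC1 exceeded CYC7 by 5.29 ± 0.05, and cytochrome oxidase subunit COX5A exceeded COX5B by 4.34 ± 0.18. The translation factor eIF5A gene HYP2 exceeded its hypoxic counterpart ANB1 by 5.09 ± 0.10. The ADP/ATP carrier PET9 exceeded AAC1 by 4.44 ± 0.08, with the hypoxic form AAC3 at 7.28 close to AAC1 at 7.29. HMG-CoA reductase HMG1 exceeded HMG2 by 1.70 ± 0.06.

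In the pentose phosphate pathway the major forms led by wide gaps. GND1 exceeded GND2 by 5.19 ± 0.06, TKL1 exceeded TKL2 by 5.19 ± 0.16, and TAL1 exceeded NQM1 by 4.71 ± 0.78. NQM1 had 7.60, 6.36 and 6.32, which gave that last gap its SD; without replicate 1 the gap was 5.16. In the tricarboxylic acid cycle, the peroxisomal citrate synthase CIT2 exceeded the mitochondrial CIT1 by 0.64 ± 0.10, and IDP1 exceeded the cytosolic IDP2 by 4.76 ± 0.14. MDH1 exceeded MDH3 by 0.83 ± 0.10. For malate synthase, DAL7 at 7.17 exceeded MLS1, which was at the floor on all 3 arrays, by at least 1.20.

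Several groups had narrow gaps. Glycogen synthases GSY2 and GSY1 differed by 0.02 ± 0.04, less than the spread, and GSY2 was the brighter on 2 of the 3 arrays. S-adenosylmethionine synthetase SAM2 exceeded SAM1 by 0.16 ± 0.07, 3-phosphoglycerate dehydrogenase SER33 exceeded SER3 by 0.30 ± 0.09 and asparagine synthetase ASN1 exceeded ASN2 by 0.37 ± 0.02. Catalase was the other group within 2 SDs, and it gives no measured gap: CTA1 was at the floor on all 3 arrays, and CTT1 had 6.58 on replicate 1 and was at the floor with 5.92 and 5.93 on the others. Differences of the size of these narrow gaps are within what unequal probe response could give, which was not tested.

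Many ribosomal proteins have a pair of near-identical genes, of which 33 pairs had probe sets without the shared suffix for each copy. Copy A was the brighter on all 3 arrays in 19 pairs and copy B in 13, and RPL37A and RPL37B changed order between arrays. The median size of the difference was 0.37, with 4 pairs above 1. RPL15A exceeded RPL15B by 2.88 ± 0.03 (SD, n = 3) and RPL22A exceeded RPL22B by 1.71 ± 0.07. RPS9B exceeded RPS9A by 1.49 in size with an SD of 0.04, and RPS14A exceeded RPS14B by 1.30 ± 0.08. How much each probe set reads of the other copy was not tested. RPL15A, RPL22A, RPS9B, RPL37A, RPL37B and the RPS14 pair were named after their values were seen.

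The spread between arrays was small for most genes, with quartiles of the SD at 0.040 and 0.090. An SD above 0.3 was found in 77 genes, 1.41% of those measured. Replicate 1 was the array farthest from the others in 64 of them, higher in 58 and lower in 6. Replicate 2 was farthest in 9, all of them higher there, and replicate 3 in 4. Without replicate 1, an SD above 0.3 remained in 16 of the 77, and 20 genes in all had one. Without replicate 2 there were 111, of which 67 were among the 77, and without replicate 3 there were 100, of which 70 were.

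**Figure D4:**
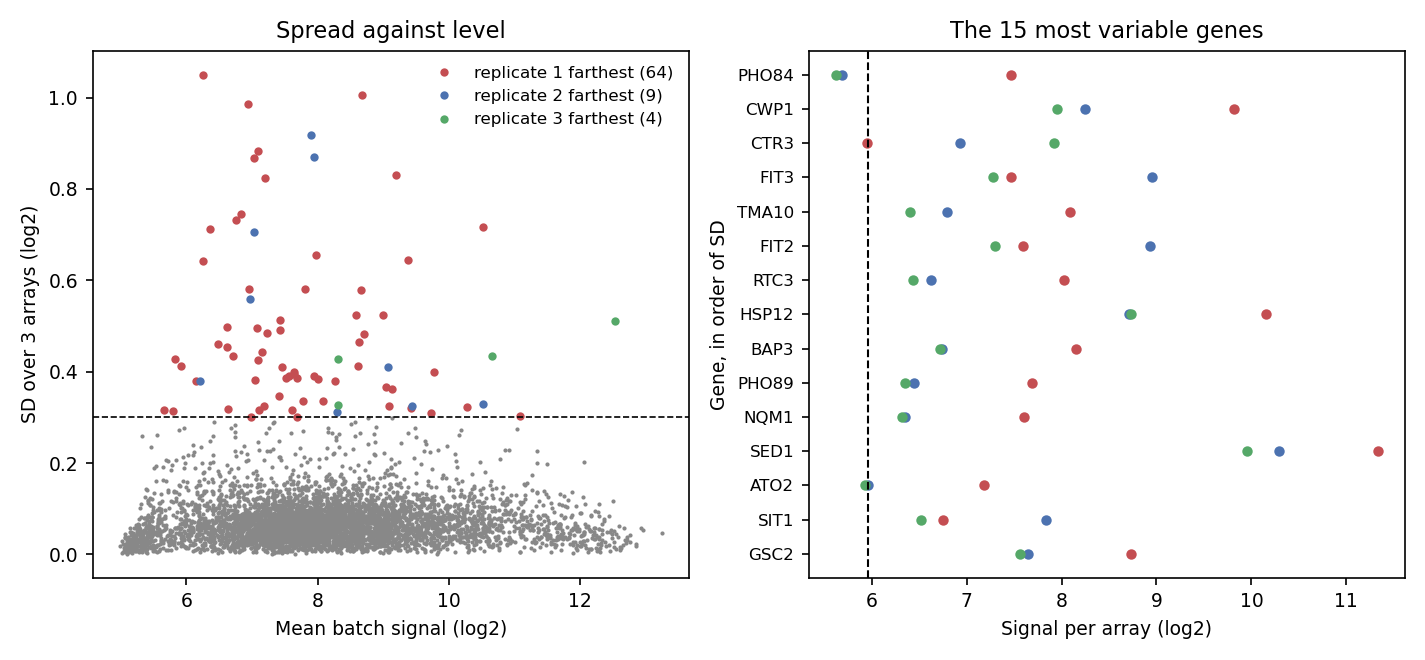
SD over the 3 batch arrays against mean log2 signal for each gene, with genes above an SD of 0.3 coloured by the array farthest from the other arrays. A second panel gives the log2 signal of each array for the 15 genes with the largest SD, in the same colours, with the floor as a vertical line. Replicate 1 accounts for 64 of the 77 coloured genes, and PHO84 has the largest SD, 1.05.

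The gene with the widest spread was PHO84, the high-affinity phosphate transporter, with 7.47, 5.68 and 5.62 and an SD of 1.05. It was above the floor on replicate 1 alone. PHO89, a sodium-phosphate cotransporter, had the same shape with 7.69, 6.45 and 6.35. Of all genes, 1.08% lay over 0.5 above the mean of the other arrays on replicate 1 and 0.165% as far below it. On replicate 2 these shares were 0.202% and 0.184%, and on replicate 3 they were 0.0734% and 0.496%.

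Cell wall and stress genes were among the others. CWP1, a wall mannoprotein, had 9.82, 8.25 and 7.95. SED1, an abundant wall protein, had 11.33, 10.30 and 9.95, and the glucan synthase subunit GSC2 had 8.73, 7.64 and 7.56. HSP12, a small membrane-associated heat shock protein, had 10.16, 8.71 and 8.73, TMA10 had 8.09, 6.79 and 6.40 and RTC3 had 8.03, 6.63 and 6.44. In each of these genes replicate 1 was high, and replicates 2 and 3 lay closer to each other than to it.

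Of 38 general stress genes, 37 were higher on replicate 1 than the mean of the other arrays, with a median deviation of 0.21, against a median of -0.02 over all genes. An SD above 0.3 was found in 9 of the 38, against 1.41% of all genes. Without replicate 1, it was found in none of the stress genes and in none of the 44 cell wall genes, of which 6 had one before. Only 20 of the 5449 genes in all had one then, so finding none says little about these lists. Single carbon genes were high on the same array, while the medians of their lists deviated less than that of the stress genes. The median deviation of replicate 1 was 0.04 in glycolysis, with 3 of 18 genes over 0.5, and 0.03 in ethanol and acetate metabolism. It was 0.02 in hexose transporters and sensors, -0.04 in the pentose phosphate pathway and 0.10 in trehalose and glycogen genes. In the same order, 14 of 18, 11 of 17, 11 of 17, 5 of 13 and 16 of 21 genes were higher there. Of all genes, 43.4% were. HXK1, GLK1, TDH1 and HXT7 were named above, PDC6 had 7.01, 6.34 and 6.12, and HXT5, a carrier of slow-growing cells, had 6.03, 5.49 and 5.48. The permease BAP3 for branched-chain amino acids had 8.16, 6.74 and 6.72, and the ammonium exporter family member ATO2 had 7.18, 5.96 and 5.93. The part that growth phase or handling of the cells had in replicate 1 was not tested.

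Replicate 2 was set apart by iron genes. FIT3 and FIT2, wall mannoproteins that hold iron-siderophore complexes, had 7.47, 8.95 and 7.27, and 7.60, 8.94 and 7.30. SIT1, a siderophore transporter, had 6.75, 7.84 and 6.52. FTR1 had 10.39, 10.89 and 10.27. Over the iron and copper list, 26 of 34 genes were higher on replicate 2 than the mean of the other arrays, where 52.3% of all genes were, with a median deviation of 0.16. Replicate 2 exceeded the others by over 0.5 in 10 of the 34, against 0.202% of all genes. An SD above 0.3 was found in 11 of the 34, against 1.41% of all genes. Without replicate 2 it was found in 2 of the 34, against 111 of the 5449 genes in all. CTR3, a high-affinity copper transporter, differed on all arrays, with 5.95, 6.94 and 7.92.

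The steadiest genes above the floor were NVJ2, SAC3, CPR6, MRP49 and AAD14, whose values agreed between the arrays to within an SD of 0.003. MRP49, a mitochondrial ribosomal protein, had 9.0 on each array. Genes often used as references for transcript measurements had mean signals from 7.61 to 13.24, while the dimmest of all genes had 4.99. Their median SD was 0.047, against 0.062 over all genes. Actin ACT1 had 12.13, 12.13 and 12.22, the mannosyltransferase ALG9 had 9.11, 9.08 and 9.22 and the transcription factor subunit TAF10 had 8.96, 9.06 and 8.90. UBC6 had a mean of 8.40, TFC1 one of 7.70 and TRS65 one of 7.61. None of the 17 measured references had an SD above 0.3, where 1.41% of all genes had one. With so few genes and so small a share, that count says little.

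Brightness went with annotated properties of the genes. Lengths and places were taken from the reference annotation of another strain, assembly R64. The Spearman correlation between mean log2 signal and annotated gene length was -0.14 over 5449 genes, whose signals share the 3 libraries; no p is attached, since genes are not independent. The course was not even: the median length was 930 bases in decile 1, the brightest, 1548 bases in decile 9 and 1014 bases in decile 10, the dimmest. Genes with only a systematic name made up 33.9% of decile 10 and 2.39% of decile 1.

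**Figure D5:**
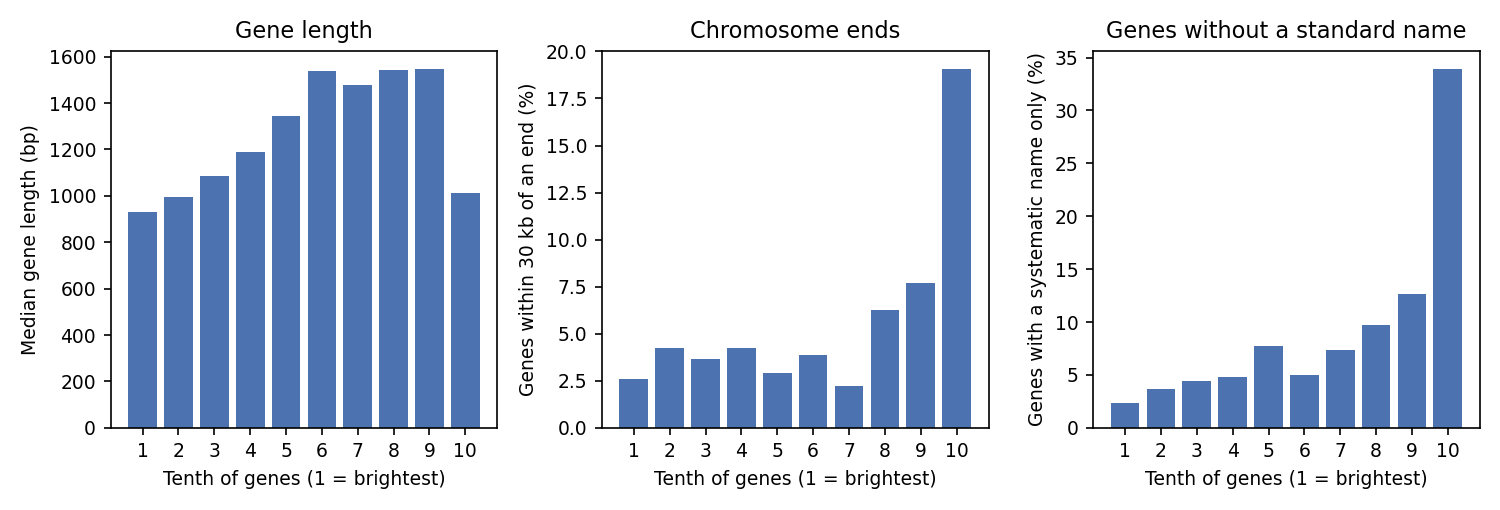
Properties of the genes in each decile by mean log2 signal over the 3 batch arrays, from the brightest to the dimmest: median annotated length, and the percent of genes with only a systematic name or within 30 kb of a chromosome end. Length rises from 930 bases to 1548 bases in decile 9 and is 1014 bases in decile 10, where 33.9% of genes have only a systematic name.

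Genes within 30 kb of the outermost annotated gene of a chromosome had a median signal of 7.01, against 7.99 for the others. At the floor were 83 of 309 such genes, or 26.9%, and 312 of 5140 others, or 6.07%. Among genes with a standard name the shares were 22% near the ends and 4.05% elsewhere. Genes with only a systematic name were at the floor in 153 of 499 cases, 30.7%, and those with a standard name in 4.89%. By chromosome, the share at the floor ran from 4.82% on chromosome IV to 15.6% on chromosome I.

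Some genes without a standard name were very bright. YDR524C-B, annotated with a length of 201 bases, had 12.22, 12.24 and 12.17 and ranked 64. YDR316W-B at 11.48, YAR010C at 11.34, YER138W-A at 11.08 and YBL100W-B at 10.66 have shared-suffix probe sets, so other copies may add to their signals. YCR024C-B at 11.26, YNL190W at 11.08, YLR179C at 10.95, YDR341C at 10.82 and YNR021W at 10.39 have none. YNL190W was among the steadiest of bright genes, with 11.08, 11.08 and 11.07, while YBL100W-B varied from 11.09 on replicate 1 to 10.22 on replicate 3. Among the 545 genes of the top 10%, 163 were in none of the lists.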

How the data were processed

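For each array and probe set the authors deposited a log2 signal; the submitters' processing notes name PLIER as the tool. Which version, offset, background correction or scaling between arrays it used is not given in the sources used here, and the log base of 2 was inferred from the range of the batch values, 4.95 to 13.3. The values were used as deposited. Of 10928 probe sets, 5498 had a gene of S. cerevisiae, 1746 one of S. pombe (a lower-case symbol outside the S. cerevisiae table), 213 were controls, 1 named several genes and 3470 were unannotated. For 47 genes with several probe sets the brightest stood for the gene. For 118 genes it has a shared-probe suffix. Names, lengths and places came from the R64 gene table. Of its coding gene lengths, 96.3% are multiples of 3, so the models hold no untranslated regions. Lengths of some bright ribosomal protein genes are not multiples of 3, such as RPS4B with 1055 bases and RPL28 with 961. Such lengths can hold more than coding sequence, and their part in the correlation with length was not tested. Protein lengths and promoters were not used here, and gene length took their place.

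Samples were grouped by the label of the cultivation protocol, and the 3 batch arrays were taken alone. No test between samples was made, since there is 1 group. Members and lists were chosen with earlier results of these data known, and they support nothing beyond their own values. Named genes were the 30 brightest, all isozymes, the 3 brightest and 3 dimmest of each list and the 15 most and 5 least variable above the floor. Reference genes, 5 on each side of the floor, the 10 brightest with only a systematic name and 5 S. pombe probe sets were added. Cell type markers were named as well, except IME1, NDT80, SPS1 and SPS4. Further genes given as steps of a pathway (PGI1, PFK1, PFK2) were chosen after their values were seen. The code for floor calls, ranks and SD calls was tested on simulated data. Python 3.11.15, numpy 2.4.6, pandas 2.3.3 and matplotlib 3.10.9 were used. Alternatives were other floors, normalizations, probe set rules and SD thresholds, and leaving out each array.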

Additional observations from a re-analysis of the deposited data

Results flagged for a closer look

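Some probe sets outside the S. cerevisiae genes were bright. The S. pombe probe set for ubi3 had log2 signals of 9.40, 9.42 and 9.41 on the 3 batch arrays, a mean of 9.41, above the median S. cerevisiae gene, although no S. pombe RNA was part of the samples. The next brightest S. pombe probe sets were gpd2 at 9.14, ssa2 at 8.69, ubi1 at 8.65 and rad25 at 8.52. The floor is itself a percentile of the S. pombe probe sets, so the number of them above it is fixed by its choice. Among the 3470 unannotated probe sets, 327 or 9.42% were above the floor on all 3 arrays. Of these, 26 were brighter than every recognised S. pombe probe set, and the brightest had a mean of 12.34. The median of the unannotated probe sets was 5.18, and how many of them are of S. pombe was not tested.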

How the results depend on the processing

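The count of 395 genes at the floor became 1705, all 395 included, with the floor at the 99th percentile of S. pombe and 265 at the 90th; it lay between 382 and 432 under the alternatives of probe set, normalization and mean signal, and between 403 and 423 with an array left out. Members of the lists at the floor, 88 as reported, became 266 at the 99th percentile and 56 at the 90th, and were 89 to 101 with an array left out. The threshold of 0.3 for the SD left 77 genes and one of 0.5 left 25; with an array left out the count at 0.3 ran from 20 to 111, and the cause was not tested. The correlation with length, -0.14, was -0.24 without floor genes, -0.11 without ribosomal protein genes and -0.15 to -0.13 with an array left out. The median near chromosome ends minus that of the rest, -0.98, was -0.40 without floor genes, which made up more of the genes near ends, -0.95 without ribosomal protein genes and -1.001 to -0.97 with an array left out. List members in the top 10% numbered 380 to 383 with an array left out. The brightest isozyme was the same in 54 of 54 groups under each alternative run, catalase included, whose members were both at the floor on 2 arrays. Of the 30 brightest genes, 29 stayed with an array left out and 28 with probe sets averaged, but 20 where shared-suffix probe sets were removed. Most of the genes lost there had no probe set left, while RPL2A, RPL18B and RPS8A fell to ranks 148, 478 and 44. Of 1438 further values of single lists, genes and groups, 1301 stayed within a set limit and 137 moved past it. Only isozyme gaps were able to reverse, and 0 did. Other floors cannot change a count in the top 10%, so such values stayed by design. Of the 137, 38 were at other floor percentiles and 57 without an array. The limit was the SD over the arrays for ranks and isozyme gaps, and a fixed ratio for counts and for SDs of genes. Leaving out arrays for length and chromosome ends, list medians without replicate 1, lower bounds at the floor, and gene length in place of protein length, were chosen after seeing the data. No paired analysis was possible because only 1 group was described and it shares no replicate number with the other. The alternative by promoter motif was not run.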
